A study of Mus musculus with 8 samples.

Results

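Transcripts of the subunits of oxidative phosphorylation were measured in mouse mammary cells sorted by the activity of a reporter at the Axl locus. The genes were chosen by symbol alone, as every Nduf gene of the a, b, c, s and v series, Sdha to Sdhd, the Uqcr genes, the Cox4 to Cox8 genes and the Atp5 genes on the array. This gave 79 of 16593 genes, of which 34 are counted under complex I, 3 under complex II, 8 under complex III, 18 under complex IV and 16 under complex V. Complex II is represented by Sdhb, Sdhc and Sdhd. All 79 are nuclear genes. Ndufa4 is counted under complex I by its symbol, although its protein is now placed in complex IV, and Ndufs5-ps is annotated as a pseudogene of Ndufs5.

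The mice were nulliparous, 16 weeks old and of the B6.129P2-Axl tm1Dgen strain, in which lacZ is inserted at Axl, which encodes a receptor tyrosine kinase. Homozygous AxlLacZ/LacZ mice carry the insertion on both alleles and heterozygous Axl+/LacZ mice on 1 allele, so every group carries the reporter and there was no wild-type group. Viable single cells negative for CD45, CD31 and CD11b were sorted with FDG, a substrate that becomes fluorescent when beta-galactosidase cleaves it, into an FDG-high gate (the highest 5%) and an FDG-low gate (the lowest 65%). The 4 groups were AxlLacZ/LacZ FDG-high, Axl+/LacZ FDG-high, AxlLacZ/LacZ FDG-low and Axl+/LacZ FDG-low cells, with 2 arrays each. Each sample pooled the glands of several animals of 1 genotype. Nothing in the labels says that the 2 arrays of a group are separate pools, and the p-values therefore measure only the spread between these arrays, which may be technical. The gates were set as shares of the sorted cells in both genotypes, although homozygous cells carry more reporter copies.

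Oxidative phosphorylation is the chain of inner mitochondrial membrane complexes that moves electrons to oxygen and uses the resulting proton gradient to make ATP. Complex I takes electrons from NADH and complex II from succinate. Complex III passes them to cytochrome c, complex IV passes them from cytochrome c to oxygen, and complex V is the ATP synthase. Most subunits are encoded in the nucleus, and in mammary epithelium the pathway supplies energy alongside glycolysis.

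The 8 single-colour arrays had median deposited intensities between 116 and 127. Values below are log2 intensities after background correction and quantile normalization, and differences are on that log2 scale. Between 48.1% and 55.5% of probes lay above background, set at the 95th percentile of 1326 chemosensory receptor probes. Axl read 6.24 and 6.40 in AxlLacZ/LacZ FDG-low cells and 8.45 and 7.98 in Axl+/LacZ FDG-low cells, and 6.07 and 6.40 in AxlLacZ/LacZ FDG-high cells against 8.89 and 9.13 in Axl+/LacZ FDG-high cells. All 11 measured markers of epithelium were above background on both arrays of at least 1 group. By contrast, 0 of 3 measured myeloid and 0 of 4 lymphoid markers were above it on both arrays of any group.

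Of the 79 subunit genes, 72 were above background on both arrays of at least 1 group and 68 on all 8 arrays. The other 7 were Cox4i2, Cox6a2, Cox7a1, Cox7b2, Cox8b, Cox8c and Uqcrq, mostly isoforms known from muscle, lung or testis. Cox7b2 and Cox8c were above background on no array. The forms that most tissues use, Cox4i1, Cox6a1, Cox6b1, Cox7a2, Cox7b and Cox8a, were above background on all 8 arrays. In bulk RNA of sorted cells, fewer cells of a type and less RNA per cell cannot be told apart.

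The first comparison asked how loss of Axl related to these transcripts in FDG-low cells. In AxlLacZ/LacZ FDG-low cells, at least 1 subunit gene of each of the 5 complexes fell relative to Axl+/LacZ FDG-low cells, and the median difference was below 0 in all 5. In limma's moderated test with Benjamini-Hochberg adjustment over all genes, 20 of 79 (25.3%) fell past an adjusted p of 0.05 and 0 rose, against 4.63% of all genes that fell and 8.41% that changed either way. The median difference over the 79 genes was -0.38, a level 1.30-fold lower, while the median over all genes was 0.00. The difference was negative for 66 of 79 genes, against 49.7% of all genes, and 38 of 79 were lower at an unadjusted p under 0.05, against 11.7%. Among genes above background on both arrays of at least 1 group, 20 of 72 subunit genes fell, against 768 of 9600 genes. At an unadjusted p under 0.05, 38 of those 72 were lower, against 1908 of the 9600. For 56 of 79 both AxlLacZ/LacZ arrays lay below both Axl+/LacZ arrays, as they did for 25.6% of all genes. The count of 20 rests on all 4 FDG-low arrays, since it was 1 without AxlLacZ/LacZ array 1, 3 without AxlLacZ/LacZ array 2, 12 without Axl+/LacZ array 1 and 3 without Axl+/LacZ array 2.

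Centring each gene on its mean over the 8 arrays gave the order of the groups. The median of the 79 centred values was -0.24 and -0.23 on the AxlLacZ/LacZ FDG-low arrays, against 0.05 and 0.24 on the Axl+/LacZ FDG-low arrays. It was 0.02 and 0.05 on the AxlLacZ/LacZ FDG-high arrays, against -0.01 and 0.09 on the Axl+/LacZ FDG-high arrays. The AxlLacZ/LacZ FDG-low arrays lay below the other 6, whose groups overlapped, with a spread within groups of 0.077 (SD).

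**Figure D1:**
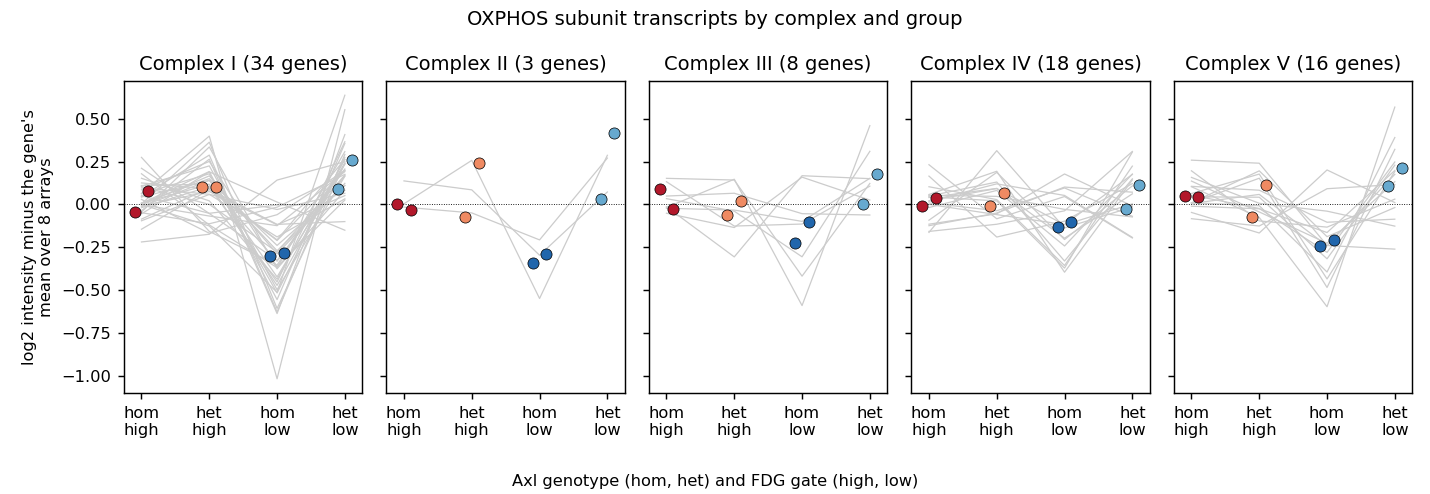
Log2 intensity of the subunit genes minus each gene's mean over 8 arrays (vertical axis), by Axl genotype (hom, AxlLacZ/LacZ; het, Axl+/LacZ) and FDG gate, 1 panel per complex. Points are the medians of the complex on single arrays and grey lines join the group means of single genes; in each panel the AxlLacZ/LacZ FDG-low arrays are the lowest.

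Complex I, the largest, had a median difference of -0.46 in FDG-low cells, and 33 of its 34 genes were negative. Of these, 10 fell. Ndufa4 read 8.96 and 8.92 in AxlLacZ/LacZ cells, against 10.43 and 10.59 in Axl+/LacZ cells. This was the widest gap among the 79, with a difference of -1.57 ± 0.13 (SE) and a level 2.97-fold lower (limma adjusted p = 0.0038), and both AxlLacZ/LacZ arrays lay below every other array. It stayed past the threshold in all 18 alternative settings run, and Atp5g2 of complex V in 17. The other genes that fell passed in fewer, down to 9 of 18 for Atp5b, Atp5mpl, Ndufa13, Ndufs5-ps and Ndufs6 and 6 of 18 for Ndufs8.

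Ndufa7, an accessory subunit, read 6.90 and 7.55 in AxlLacZ/LacZ FDG-low cells, against 8.45 and 8.30 in Axl+/LacZ FDG-low cells (-1.15 ± 0.22, limma adjusted p = 0.029). Its AxlLacZ/LacZ FDG-low arrays lay well apart, yet both were below the Axl+/LacZ FDG-low arrays. Ndufb8, a membrane arm subunit whose protein is unstable when complex I is not assembled, read 9.08 and 9.31 in AxlLacZ/LacZ cells and 10.12 and 10.36 in Axl+/LacZ cells, a difference of -1.04 ± 0.14 (limma adjusted p = 0.012). Ndufs4, mutated in Leigh syndrome in people, read 8.50 and 8.55 in AxlLacZ/LacZ cells and 9.28 and 9.60 in Axl+/LacZ cells, a difference of -0.92 ± 0.16. Its other 3 probes gave -0.80, -0.78 and -0.77. The remaining genes that fell in this complex were the accessory subunit genes Ndufb2 (-0.91 ± 0.17), Ndufa10 (-0.82 ± 0.11), Ndufs6 (-0.66 ± 0.14) and Ndufa13 (-0.45 ± 0.08), the last also known as GRIM-19, with Ndufs8, described next, and the pseudogene Ndufs5-ps (-0.66 ± 0.13), whose probe may also read Ndufs5 transcripts.

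The core subunits carry out electron transfer. Ndufs1, Ndufs3, Ndufs7, Ndufs8, Ndufv1 and Ndufv2 had a median of -0.40, all 6 were negative and 1 of them, Ndufs8, which holds iron-sulphur clusters, fell. Ndufs8 read 6.95 and 6.94 in AxlLacZ/LacZ cells and 7.76 and 7.71 in Axl+/LacZ cells (-0.79 ± 0.17, limma adjusted p = 0.038). Ndufa genes had a median of -0.54 over 12 genes and the Ndufb and Ndufc genes -0.30 over 12. Ndufa5 was the only complex I gene with a positive value, 0.16 ± 0.23. Just outside the threshold were Ndufa12 (adjusted p = 0.052), Ndufa2 (0.057) and Ndufs3 (0.059), so the count of 10 depends on where the line is drawn.

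**Figure D2:**
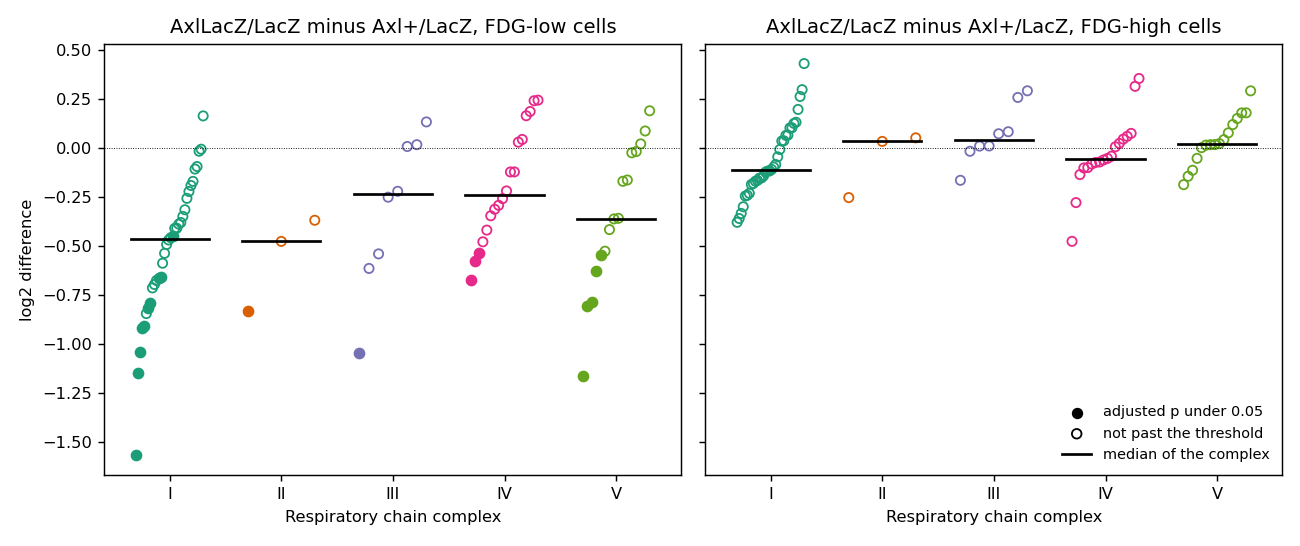
Log2 difference between AxlLacZ/LacZ and Axl+/LacZ cells for each of the 79 genes, by complex, in FDG-low cells (left) and FDG-high cells (right). Filled points passed an adjusted p of 0.05, open points did not, and bars are medians; in FDG-low cells the 20 filled points are all below 0, and in FDG-high cells none is filled.

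In complex II, which also belongs to the TCA cycle, the median was -0.48 and Sdhc, a membrane anchor subunit, fell. Sdhc read 9.61 and 9.69 in AxlLacZ/LacZ FDG-low cells, against 10.36 and 10.62 in Axl+/LacZ FDG-low cells (-0.84 ± 0.12, limma adjusted p = 0.015). A second Sdhc probe gave -0.62. Sdhb, the iron-sulphur subunit, and Sdhd, the other anchor, gave -0.37 ± 0.20 and -0.48 ± 0.19 and did not pass the test.

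In complex III the median was -0.24 and 1 of 8 genes fell. Uqcr11, a small accessory subunit, read 7.96 and 7.81 in AxlLacZ/LacZ FDG-low cells, against 8.96 and 8.91 in Axl+/LacZ FDG-low cells, a difference of -1.05 ± 0.14 (limma adjusted p = 0.013). The Rieske iron-sulphur protein gene Uqcrfs1 gave 0.13 ± 0.09 and the hinge subunit gene Uqcrh gave 0.02 ± 0.18. Cyc1, the cytochrome c1 gene outside the symbol rule, gave 0.01 ± 0.14. Uqcr10, another small accessory subunit gene, gave -0.62 ± 0.20, with -0.56 from its second probe, and Uqcrc2, a core protein gene, gave -0.54 ± 0.17. Uqcrb (-0.25 ± 0.24) and Uqcrc1 (-0.22 ± 0.15) lay nearer 0. None of these passed the adjusted threshold.

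In complex IV the median was -0.24 and 3 of 18 genes fell, Cox6b1, Cox5a and Cox7c. The median includes Cox4i2, Cox6a2, Cox7a1, Cox7b2, Cox8b and Cox8c, which were never above background on both arrays of a group. Cox6b1, which lies on the side where cytochrome c docks, read 10.16 and 10.12 in AxlLacZ/LacZ FDG-low cells, against 10.88 and 10.75 in Axl+/LacZ FDG-low cells (-0.68 ± 0.09, limma adjusted p = 0.012), and its second probe gave -0.86. Cox5a read 8.65 and 8.78 in AxlLacZ/LacZ cells and 9.34 and 9.24 in Axl+/LacZ cells (-0.58 ± 0.10), and Cox7c read 10.70 and 10.75 in AxlLacZ/LacZ cells and 11.23 and 11.30 in Axl+/LacZ cells (-0.54 ± 0.09). For these 3 genes both AxlLacZ/LacZ FDG-low arrays lay below both Axl+/LacZ FDG-low arrays, as they did for 25.6% of all genes. Cox5b (-0.48 ± 0.15) and Cox6c (-0.42 ± 0.13) did not pass the test. Cox4i1, the largest nuclear-encoded subunit, gave -0.29 ± 0.13, Cox6a1 -0.26 ± 0.13, Cox7b -0.31 ± 0.14 and Cox8a -0.22 ± 0.13, none past the test. Cox7a2 gave 0.24 ± 0.16 and Cox7a2l, which helps to join complexes III and IV into supercomplexes, -0.35 ± 0.36. Since Ndufa4 belongs to complex IV by protein, moving it there gives 4 of 19 genes that fell and a median of -0.26, and leaves complex I with 9 of 33 and a median of -0.46.

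In complex V the median was -0.36 and 5 of 16 genes fell, Atp5g2, Atp5k, Atp5e, Atp5b and Atp5mpl. Atp5g2 read 7.67 and 7.96 in AxlLacZ/LacZ FDG-low cells, against 8.96 and 9.001 in Axl+/LacZ FDG-low cells, a difference of -1.16 ± 0.13 and a level 2.24-fold lower (limma adjusted p = 0.0076). Atp5g2 is 1 of 3 genes that encode the same mature c subunit of the rotor ring. The other 2, Atp5g1 and Atp5g3, gave 0.02 ± 0.27 and 0.09 ± 0.14. Atp5b encodes the catalytic beta subunit, and read 10.26 and 10.08 in AxlLacZ/LacZ cells against 10.70 and 10.89 in Axl+/LacZ cells (-0.63 ± 0.11), whereas the alpha subunit gene Atp5a1 gave -0.02. Atp5e (-0.78 ± 0.13) encodes the epsilon subunit, and Atp5k (-0.81 ± 0.16) and Atp5mpl (-0.55 ± 0.11) small membrane subunits.

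**Figure D3:**
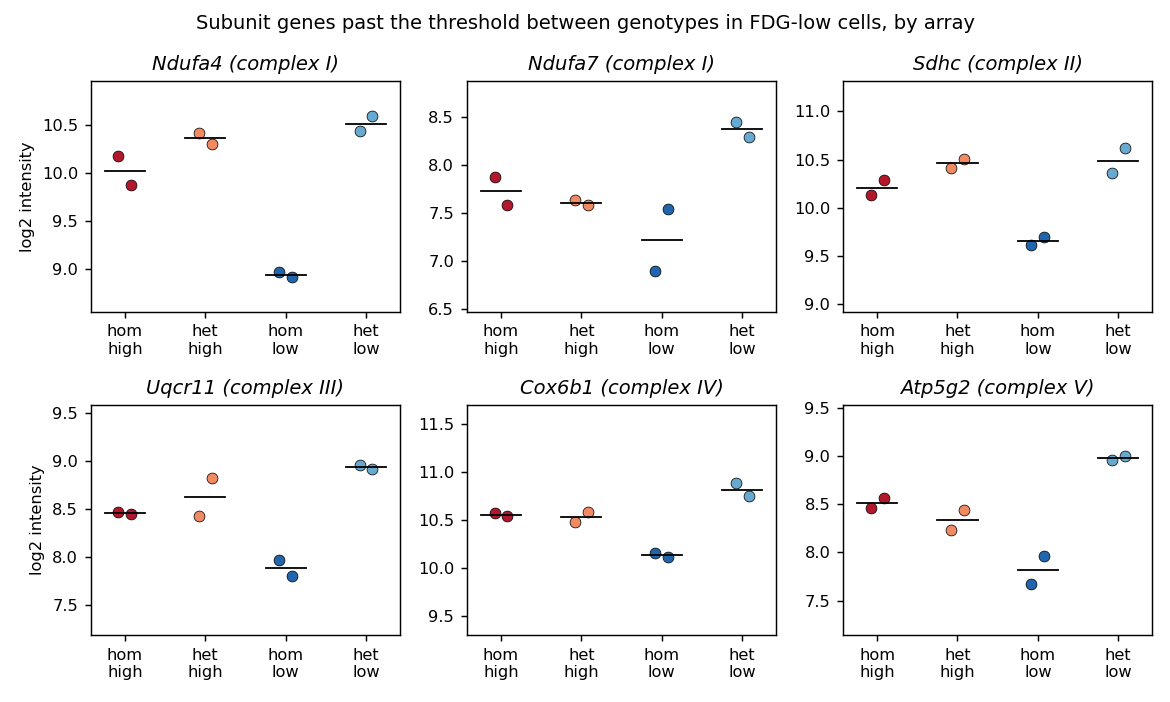
Log2 intensity of 6 genes on each of the 8 arrays, by genotype and gate, with a line at each group mean. The vertical axis covers the same span in every panel, centred at a different level. In all 6 panels the AxlLacZ/LacZ FDG-low arrays lie below the Axl+/LacZ FDG-low arrays, as they do for 25.6% of all genes. For Ndufa7 the AxlLacZ/LacZ FDG-low arrays are 6.90 and 7.55.

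Promoters of several of these genes are shown because the subunit genes are known to share binding motifs of the factors NRF1, GABPA, YY1 and ERR. Sequences are RefSeq's (GRCm38.p6), 5′ to 3′ on the gene's strand, from 100 bases before to 30 bases after the annotated start, with motif matches in capitals.
Uqcr11, chr10:80406792-80406921, minus strand: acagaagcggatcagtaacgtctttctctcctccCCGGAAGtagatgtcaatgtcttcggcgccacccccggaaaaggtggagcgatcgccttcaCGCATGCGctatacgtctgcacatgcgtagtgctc
Atp5k, chr5:108434370-108434499, minus strand: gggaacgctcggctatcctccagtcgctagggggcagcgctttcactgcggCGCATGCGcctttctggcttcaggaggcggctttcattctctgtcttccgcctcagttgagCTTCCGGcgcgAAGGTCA
Atp5g2, chr15:102671018-102671147, minus strand: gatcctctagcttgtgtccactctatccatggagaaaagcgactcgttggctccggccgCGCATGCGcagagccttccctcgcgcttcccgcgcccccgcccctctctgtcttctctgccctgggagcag
Cox7c, chr13:86046766-86046895, minus strand: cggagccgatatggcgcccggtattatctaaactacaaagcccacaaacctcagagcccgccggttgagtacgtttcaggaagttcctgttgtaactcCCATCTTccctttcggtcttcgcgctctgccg
Ndufa4, chr6:11907421-11907550, minus strand: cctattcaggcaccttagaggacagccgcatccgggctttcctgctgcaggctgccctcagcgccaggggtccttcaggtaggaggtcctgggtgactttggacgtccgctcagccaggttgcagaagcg

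The motifs searched on both strands were GCATGCG for NRF1, whose 2 strands overlap in CGCATGCG, CCGGAAG for GABPA and other ETS factors, AAGATGG for YY1 and AAGGTCA for ERR. In 300-base windows, available for 64 of the 79 genes, GCATGCG was present in 10 (15.6%), against 4.01% of all 27025 genes with a window, and the longer palindromic NRF1 motif that contains it in 4 (6.25%, against 1.07%). CCGGAAG was present in 16 (25%, against 9.93%), AAGATGG in 11 (17.2%, against 7.28%) and AAGGTCA in 7 (10.9%, against 5.38%). Among the 17492 protein-coding genes with a window, GCATGCG was present in 4.96% and the longer motif in 1.47%. CCGGAAG was present in 12.9% of them, AAGATGG in 7.18% and AAGGTCA in 4.73%. Of the 17 genes with a window that fell, 5 held CCGGAAG (29.4%), 4 AAGATGG (23.5%), 3 GCATGCG (17.6%) and 3 AAGGTCA (17.6%). Of the 47 subunit genes with a window that did not pass, 23.4% held CCGGAAG, 14.9% AAGATGG, 14.9% GCATGCG and 8.51% AAGGTCA. All 3 that fell and held GCATGCG, Uqcr11, Atp5k and Atp5g2, are among the promoters printed above. Atp5b, Cox5a, Ndufa7, Ndufa10 and Ndufa13 also fell, are not printed and held no match. The Ndufa4 stretch printed above held none of these motifs. A match is a string of letters and says nothing of binding in these cells.

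The gates were then compared within each genotype. In AxlLacZ/LacZ glands the 79 genes had a median difference of 0.28 between FDG-high and FDG-low cells, and 65 of 79 were positive, against 48% of all genes. Only Ndufa4 rose past the threshold, against 0.259% of all genes that rose and 0.392% that changed. It read 10.17 and 9.87 in FDG-high cells, against 8.96 and 8.92 in FDG-low cells, a difference of 1.08 ± 0.13 (limma adjusted p = 0.041), and it passed in 8 of 18 alternative settings. At an unadjusted p under 0.05, 28 genes were higher (35.4%, against 6.65% of all genes) and 1, Ndufb10 (-0.36 ± 0.13), was lower (against 6.27%). Among genes above background on both arrays of at least 1 group, 28 of 72 subunit genes were higher, against 1079 of 9600 genes. For 53 of 79 genes both FDG-high arrays lay above both FDG-low arrays, as for 21.3% of all genes. Medians were 0.36 in complex I, 0.43 in complex II, 0.17 in complex III, 0.13 in complex IV and 0.33 in complex V. The complex IV median includes its isoforms that were never above background on both arrays of a group. This comparison and the one between genotypes in FDG-low cells share the AxlLacZ/LacZ FDG-low arrays.

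In Axl+/LacZ glands, no subunit gene passed the test between gates. The test did not pair same-numbered arrays, although their deviations correlated at 0.44 between these gates. The median difference between FDG-high and FDG-low cells was -0.12, with 27 of 79 positive, against 47.7% of all genes, and 0 genes passed the limma test, against 0.00603% of all genes, while at an unadjusted p under 0.05, 1 was higher, against 4.72% of all genes, and 8 were lower, against 5.53%. The count was also 0 in each alternative setting run. Ndufa7 read 7.63 and 7.59 in FDG-high cells, against 8.45 and 8.30 in FDG-low cells, a difference of -0.76 (limma adjusted p = 0.30). Atp5g2 gave -0.64 (limma adjusted p = 0.18), Uqcrh -0.46, Ndufa5 0.34, Ndufa1 0.25 and Atp5g1 0.50.

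**Figure D4:**
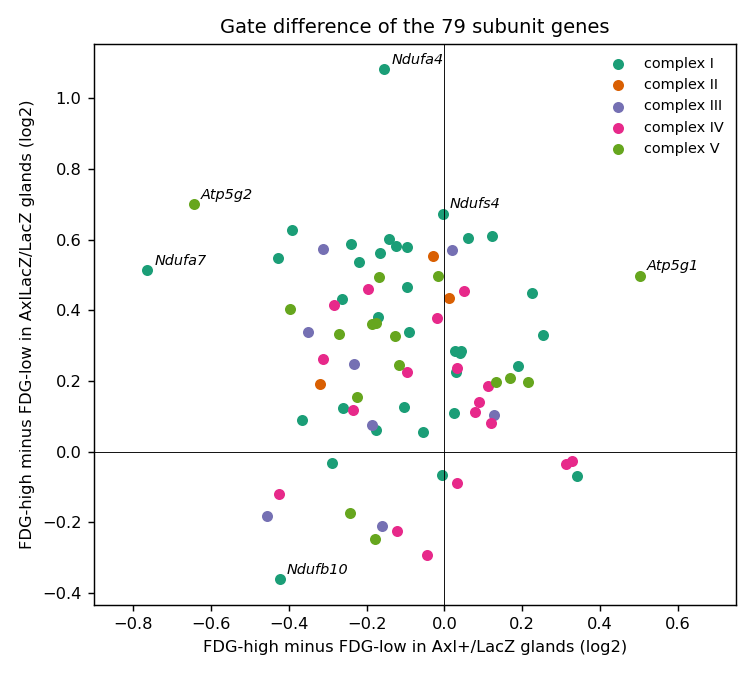
Log2 difference between FDG-high and FDG-low cells of each of the 79 genes in Axl+/LacZ glands (horizontal) and AxlLacZ/LacZ glands (vertical), coloured by complex, with 6 genes named. Most points lie above 0 on the vertical axis (65 of 79), and Ndufa4 stands at 1.08 there.

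The difference between these gate differences was tested as an interaction, the gate difference in AxlLacZ/LacZ glands minus that in Axl+/LacZ glands. Its median over the 79 genes was 0.38, with 66 of 79 positive, against 49.7% of all genes. Atp5g2 (1.34 ± 0.18, limma adjusted p = 0.041) and Ndufa4 (1.24 ± 0.18, limma adjusted p = 0.048) were the 2 genes past the threshold, both higher, against 0.579% of all genes that were higher and 0.814% that passed either way. Atp5g2 read 8.46 and 8.57 in AxlLacZ/LacZ FDG-high cells, against 8.24 and 8.44 in Axl+/LacZ FDG-high cells, so both AxlLacZ/LacZ arrays were slightly above in that gate. At an unadjusted p under 0.05, 28 genes were positive, against 7.46% of all genes, and 0 negative, against 6.83%. Among genes above background on both arrays of at least 1 group, these were 28 of 72 subunit genes, against 1214 of 9600 genes. Leaving out any single array took the count to 0, except AxlLacZ/LacZ FDG-high array 2, without which it was 1.

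No subunit gene passed the threshold between genotypes in FDG-high cells. The count was 0 in limma's test and in each alternative setting run, and 0% of all genes passed that test. At an unadjusted p under 0.05, Cox8a (0.36 ± 0.13) and Atp5l (0.29 ± 0.11) were higher, against 1.86% of all genes, and Ndufa1 (-0.38 ± 0.15) and Ndufa4 (-0.33) were lower, against 1.99%. The median was -0.01, with 39 genes positive and 40 negative, against 49.2% of all genes positive. The complex medians lay between -0.11 (complex I) and 0.04 (complex III). Ndufa4 read 10.17 and 9.87 in AxlLacZ/LacZ FDG-high cells, against 10.41 and 10.30 in Axl+/LacZ FDG-high cells. Ndufa9 gave 0.43 ± 0.23, Cox7a2 0.32 ± 0.16 and Ndufa2 -0.36 ± 0.20.

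In AxlLacZ/LacZ FDG-low cells some genes that work with the complexes fell as well. Over all genes 4.63% fell and 3.78% rose in this comparison, and in lists this small a share moves widely with 1 gene. Of 38 assembly factors measured, 4 fell and 0 rose, with a median of -0.22. These were Coa5 (-1.38 ± 0.17), which acts in complex IV assembly, Uqcc2 (-0.94 ± 0.18) in complex III, Acad9 (-0.88 ± 0.18) in complex I, and the copper chaperone Cox17 (-0.64 ± 0.14). Of 17 TCA cycle and pyruvate entry genes, 2 fell, Suclg1 (-1.14 ± 0.26) and the citrate synthase gene Cs (-0.50 ± 0.10), with a median of -0.18.

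Of 13 carriers, uncoupling proteins and cytochrome c genes, Atpif1, which encodes the inhibitor of ATP synthase, fell (-1.06 ± 0.18) and the median was -0.22. Of 14 fatty acid oxidation genes all were negative, against 49.7% of all genes, with a median of -0.28, and 1 fell, the short-chain acyl-CoA dehydrogenase gene Acads. Acads read 6.41 and 7.14 in AxlLacZ/LacZ cells, against 9.14 and 8.87 in Axl+/LacZ cells (-2.23 ± 0.35, limma adjusted p = 0.018). Of 7 genes of reactive oxygen defence, Gpx4 fell (-0.67 ± 0.08) and the median was -0.06.

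Glycolysis genes went both ways. Of 16, Eno2 rose (2.76 ± 0.36), reading 9.73 and 9.90 in AxlLacZ/LacZ FDG-low cells against 6.84 and 7.25 in Axl+/LacZ FDG-low cells, and Pkm fell (-0.84 ± 0.18), with a median of -0.06. Of 15 regulators of mitochondrial genes, 0 passed limma's test and the median was 0.06. The factors whose motifs were searched gave 0.21 ± 0.19 (Nrf1), 0.15 ± 0.13 (Gabpa), 0.61 ± 0.25 (Yy1) and -0.11 ± 0.26 (Esrra), none past the test.

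Cell type markers moved too, some down and others up. Between genotypes in FDG-low cells, 10 of 11 epithelial markers fell, with a median of -2.45, and their mean level was 8.06 and 8.08 in AxlLacZ/LacZ cells against 10.04 and 10.15 in Axl+/LacZ cells. Luminal progenitor markers fell in 4 of 6 (median -2.29), basal markers in 1 of 8 (median -1.06) and hormone-sensing luminal markers in 1 of 5 (median -0.48). Fibroblast markers rose in 3 of 10, with a median of 1.77 and mean levels of 10.52 and 10.49 in AxlLacZ/LacZ cells against 8.02 and 9.46 in Axl+/LacZ cells. Erythrocyte markers rose in 2 of 4. Of 8 skeletal muscle markers 5 were positive and 3 negative (median 0.07), and 1, Tnnt3, rose (1.22 ± 0.16). Only 1 of these 8 was above background on both arrays of any group. The part of the cell type markers in the lower subunit levels was not tested.

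The markers also moved between gates in AxlLacZ/LacZ glands, where 3 of 11 epithelial markers rose (median 1.50), against 0.259% of all genes, and their mean level was 9.58 and 8.99 in FDG-high cells, against 8.06 and 8.08 in FDG-low cells. Basal markers had a median of 1.96 there, with Acta2 past the test, and luminal progenitor markers one of 1.38, with 0 of 6 past it. Erythrocyte markers fell in 2 of 4 (median -1.65), against 22 of all 16593 genes, and fibroblast markers had a median of -0.32 with 0 of 10 past the test. In Axl+/LacZ glands no marker of these lists passed the test between gates. Fibroblast markers were positive in 10 of 10 (median 1.91), with mean levels of 9.98 and 10.73 in FDG-high cells against 8.02 and 9.46 in FDG-low cells. Epithelial markers were negative in 10 of 11 (median -1.06) and luminal progenitor markers in 6 of 6 (median -1.08), while basal markers were positive in 8 of 8 (median 0.67). The part of these markers in the gate differences of the subunit genes was not tested. In FDG-high cells the epithelial level was 9.58 and 8.99 in AxlLacZ/LacZ cells against 9.28 and 9.28 in Axl+/LacZ cells, and those groups overlapped. Brown adipocyte marker Ucp1, the uncoupling protein, was above background on 0 of 8 arrays. Of 7 white adipocyte markers 2 were above background, Lpl (1.96 between genotypes in FDG-low cells) and Fabp4 (0.53), and the mean level of the list was 8.88 and 8.64 in AxlLacZ/LacZ FDG-low cells against 7.25 and 8.01 in Axl+/LacZ FDG-low cells. White and brown adipocyte, pericyte, endothelial and proliferation marker lists had 0 genes past the limma test in FDG-low cells, with medians between 0.05 and 0.45. Cox8b is itself on the brown adipocyte list.

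**Figure D5:**
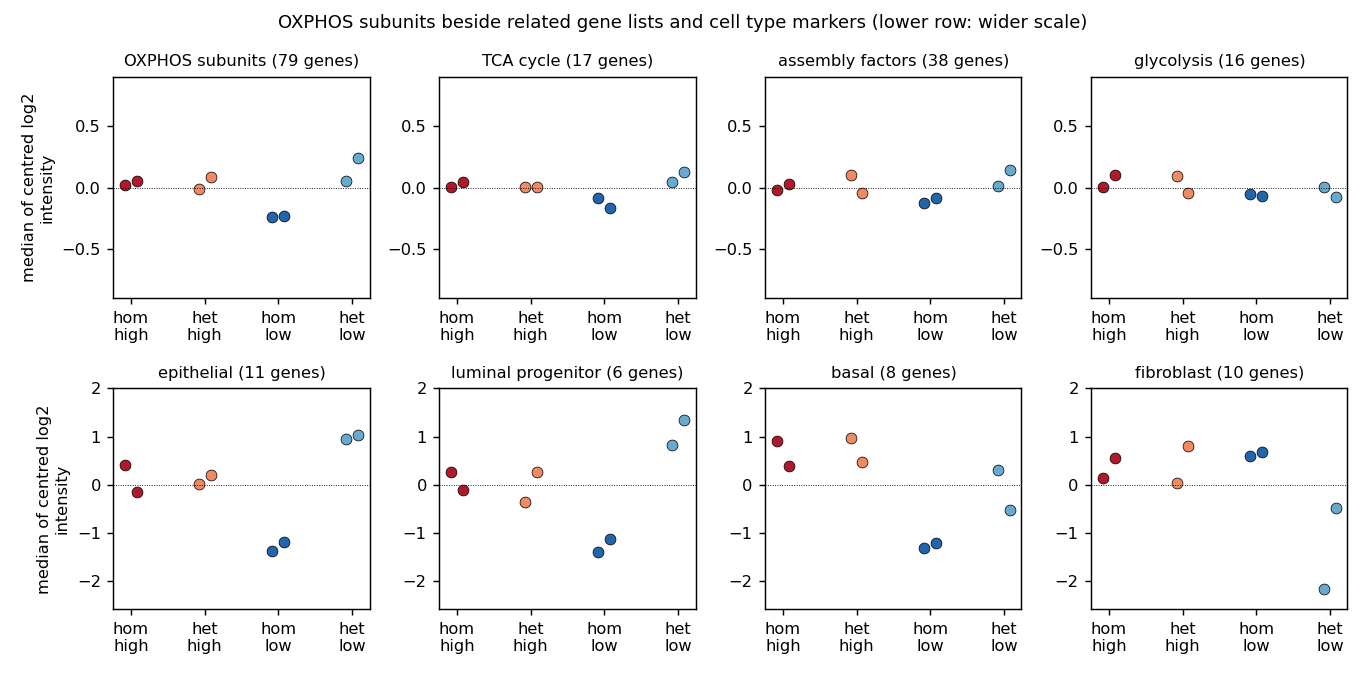
Median of centred log2 intensity on each array for the subunit genes, 3 related lists (upper row) and 4 marker lists (lower row, wider scale), by genotype and gate. The subunit, epithelial, luminal progenitor and basal medians are lowest in AxlLacZ/LacZ FDG-low cells, while the fibroblast median is lowest in Axl+/LacZ FDG-low cells.

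Genes were not alike in how they followed the set. The Pearson r of each gene with the median of the 79 over the 8 arrays, a description over arrays that share groups and includes the gene itself, had a median of 0.76 and ran from -0.72 for Cox7b2, which was at background, to 0.97. Atp5k (0.96), Cox5b (0.96) and Atp5b (0.94) followed it closely, and Atp5g1 (0.00) and Atp5g3 (0.06) did not. Outside the 79, the profiles most like their median among 6500 genes above background on all arrays were those of Pdcd5 (r = 0.98), Snrpd2 (0.98), S100a1 (0.97), Cmpk1 (0.97) and Tmem176b (0.97).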

How the data were processed

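Biotin-labelled cRNA from total RNA was hybridised to Illumina mouse bead arrays, per the labels, and the deposited table holds linear intensity values for 25697 probes on 8 arrays. The series text speaks of log2 quantile normalized values, but the deposited values are linear, with medians and maxima that differ between arrays, so they were treated as intensities. No source used here names the scanner software. With limma 3.58.1 in R 4.3.3, intensities were background corrected (normexp, offset 50), quantile normalized and put on a log2 scale. The brightest probe stood for each gene (16593 genes), with gene symbols from the platform annotation. A model with 4 group means gave 5 contrasts, with Benjamini-Hochberg adjustment over all genes at 0.05, 4 residual and 2.36 prior degrees of freedom. The number of arrays limits the precision. The fit was tested on simulated data with independent noise between arrays, which cannot speak to arrays that are technical repeats. All 8 arrays lie on 1 chip. The genes and related lists were chosen with earlier results of these data known. Genes are named if past the threshold in any contrast, among the 3 most positive or negative per contrast, the isoforms, or past the threshold in a related list. Others (such as Uqcrfs1, Uqcr10, Uqcrc2, Cyc1, Atp5a1, Ndufa12, Ndufs3, Sdhb, Sdhd, single markers and regulators) are named for their role or place near the threshold and were chosen after their values were seen. Alternatives covered normalization, background correction, offset, probe rule, filter, variance model, arrays in the fit, replicate block and each array left out. Likeness to the median and the promoter matches are descriptions.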

Additional observations from a re-analysis of the deposited data

Results flagged for a closer look

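Atp5g2 and Ndufa4 differed between genotypes in their gate difference, by limma's interaction test across all genes. Atp5g2, a rotor ring gene of the ATP synthase, had a gate difference 1.34 higher on the log2 scale in AxlLacZ/LacZ than in Axl+/LacZ glands, 0.70 against -0.64. Ndufa4, a complex IV subunit by protein, had one 1.24 higher, 1.08 against -0.15. In both, the AxlLacZ/LacZ FDG-low arrays were the lowest of the 8. Epithelial markers were also lowest on those arrays, and their part in these differences was not tested.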

How the results depend on the processing

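The median difference between genotypes in FDG-low cells stayed negative in every setting run, -0.49 to -0.27 with single arrays left out. The count of 20 genes in that comparison was 13 with a normexp offset of 16, 13 with an intensity trend in the variance, 1 to 21 with single arrays left out and 15 to 22 in the other settings. With the replicate number as a block it was 20, of which 19 were the same genes.

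The count of 1 between gates in AxlLacZ/LacZ glands was 2 with median centring and 3 with the values as deposited. It was 0 without background correction, 0 in a fit of only the arrays compared, 0 with the replicate block, and 0 to 1 with single arrays left out. The count of 2 for the interaction was 1 without background correction, 1 with an offset of 16, 1 as deposited, 1 with the replicate block, 0 with the intensity trend, 0 with cyclic loess (chosen after seeing the data) and 0 to 1 with single arrays left out. The causes were not tested.

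The median between gates in AxlLacZ/LacZ glands was 0.48 with median centring and 0.44 as deposited. The median between genotypes in FDG-high cells was 0.11 as deposited and -0.085 to 0.037 with single arrays left out. The median interaction was 0.47 with median centring, 0.28 without background correction and 0.22 to 0.49 with single arrays left out, and the median between gates in Axl+/LacZ glands was -0.17 to -0.017. Atp5pb's interaction turned to 0.037 with median centring and 0.054 as deposited. With single arrays left out it was -0.24 to 0.10, Cox6b2's -0.30 to 0.089 and Ndufa5's genotype difference in FDG-low cells -0.045 to 0.38. Where leaving out an array left 1 in a group, that array was assumed to vary like the others.

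Deviations of same-numbered arrays correlated at 0.44 between the gates of Axl+/LacZ glands and between -0.06 and 0.06 in the other 5 pairs of groups. The main fit did not pair the arrays, since the labels do not say what the numbers stand for. Whether same-numbered Axl+/LacZ arrays share a source was not tested. The replicate block was applied to both genotypes alike, and with it no subunit gene passed between gates in Axl+/LacZ glands.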
